A study of Homo sapiens with 9 samples.

Results

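The sites of ZNF395 and of MYC in 786-O cells were compared as 2 peak lists from chromatin immunoprecipitation followed by sequencing (ChIP-seq). The first list holds the 20034 peaks of a GFP antibody in 786-O cells that carry an eGFP knock-in at ZNF395, here called tagged peaks. The second holds the 20199 peaks of a c-Myc antibody in parental 786-O cells, which carry no tag. Together they are 40233 of the 52875 peaks in the 5 deposited lists of the series, and each list is used whole. A peak was counted as shared when it overlapped a peak of the other list by 1 bp or more. Each peak was also placed in 1 of 4 width classes (under 300, 300 to under 600, 600 to under 1000, and 1000 bp or more), with distances taken between peak midpoints. Tagged peaks that overlapped any of the 3361 GFP peaks of parental 786-O cells were marked as lying at parental sites, where the antibody gave a peak without a tag.

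786-O is an established line of clear cell renal cell carcinoma that lacks functional VHL. ZNF395 is a zinc finger protein that is highly expressed in this tumour type. MYC is a basic helix-loop-helix leucine zipper factor that pairs with MAX, binds E-box sequences and is found at the promoters of many active genes, among them genes of ribosome production, nucleotide synthesis and glycolysis. A ChIP-seq peak marks an interval where precipitated fragments exceed a control. Its width depends on how far the fragments extend and on how strong the signal is, so a wide peak is not by itself a longer binding site.

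The tagged cells were made by electroporating a guide plasmid with a donor plasmid for a tag at the end of ZNF395, and the labels do not say whether 1 clone or a pool was used. The parental cells of the MYC and GFP samples were not edited. Fixation was with 1% formaldehyde for 10 min, chromatin was sonicated to about 500 bp, and 20 µg of antibody was used. The labels give 30 to 50 M reads per library on average. Since the lists hold no read counts, how many reads stand behind a given peak is unknown. Each group was 1 library. No difference has a replicate check, no p-value is given, and the 95% intervals (exact, Clopper-Pearson) reflect counting error alone, as if peaks were independent of each other. The MYC sample carries P300, a coactivator of active enhancers and promoters, in its target field, while its title and antibody name MYC. It is called MYC here on the title. Its control library was also that of the parental GFP list, whereas the tagged list had a control of its own.

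Many ZNF395-eGFP peaks of 786-O had a MYC peak, in a share that depended on the overlap rule. Of all tagged peaks, 12150 (60.6%, 95% interval 60.0 to 61.3) had a MYC peak, and 12307 of the MYC peaks (60.9%, 60.3 to 61.6) had a tagged peak. With a 50% reciprocal overlap the shares were 40.0% and 39.7%, and with midpoints at most 200 bp apart 46.0% and 45.6%. These are the background shares against which the parts of each list are read below. By length, 6065 kb lay in both lists, which was 57.4% of the 10567 kb under tagged peaks and 56.1% of the 10805 kb under MYC peaks. Sharing was mostly between single peaks. In all, 11512 tagged peaks met 1 MYC peak each and 638 met 2 or more, with 4 as the most. In the other direction 11820 MYC peaks met 1 tagged peak and 487 met 2 or more.

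Wide peaks were shared far more often than narrow ones. Of the tagged peaks under 300 bp, 2373 of 7559 (31.4%, 30.3 to 32.5) had a MYC peak. The share was 64.7% (63.5 to 65.9) of 6089 peaks of 300 to under 600 bp, and 88.8% (87.8 to 89.7) of 4050 peaks of 600 to under 1000 bp. Among the 2336 tagged peaks of 1000 bp or more, 2239 had a MYC peak (95.8%, 94.96 to 96.6), which left 97 without one. The 4 intervals did not overlap. MYC peaks gave the same order. Their share with a tagged peak was 34.2% under 300 bp, 57.5% at 300 to under 600 bp, 86.4% at 600 to under 1000 bp and 97.3% (96.6 to 98.0) at 1000 bp or more, where 55 of 2069 peaks were unshared. No step was seen at the class limits. Of tagged peaks from 250 to 299 bp 42.8% had a MYC peak, and of those from 300 to 349 bp 50.5%. Wider peaks can meet another peak over a longer stretch, so width enters any overlap count by construction.

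**Figure D1:**
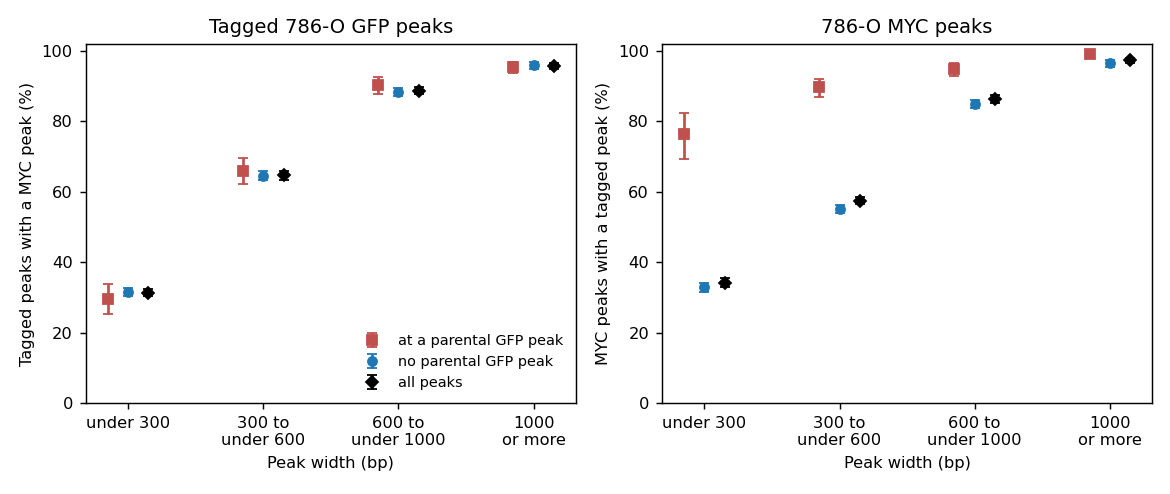
Share of peaks shared with the other list (%, vertical axis) by width class (bp, horizontal axis), for tagged 786-O GFP peaks on the left and 786-O MYC peaks on the right, with exact 95% binomial intervals. Squares are peaks at a parental GFP peak, circles those without one and diamonds all peaks. On the left the squares and circles lie together in each class (29.6% and 31.5% under 300 bp), and on the right the squares lie above the circles (76.4% and 32.9% under 300 bp).

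The distance between midpoints gave a measure that does not by its rule need the peaks to touch. Up to 200 bp it still counted only overlapping peaks, since 0% of the 7884 unshared tagged peaks had a MYC midpoint that near. The nearest MYC midpoint lay within 100 bp of 17.3% (16.5 to 18.2) of the tagged peaks under 300 bp, against 35.2% of those of 300 to under 600 bp, 43.3% (41.8 to 44.9) of those of 600 to under 1000 bp and 33.7% (31.8 to 35.7) of the widest. Over this short distance the widest class was thus not the closest. Within 500 bp the shares were 32.8%, 64.2%, 87.3% and 91.1% from the narrowest to the widest class. The median distance was 5656 bp for tagged peaks under 300 bp, 179 bp for those of 300 to under 600 bp, 122 bp for those of 600 to under 1000 bp and 167 bp for those of 1000 bp or more.

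**Figure D2:**
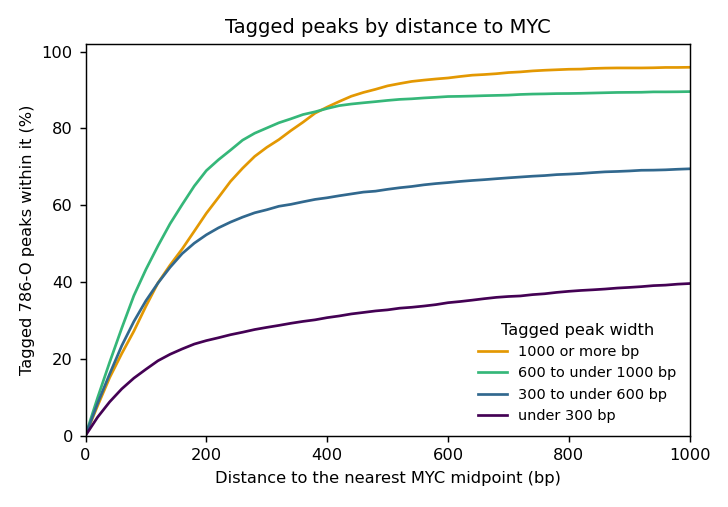
Share of tagged 786-O peaks (%, vertical axis) whose nearest MYC midpoint lies within a given distance (bp, horizontal axis), with 1 line per width class of the tagged peak. The line of peaks under 300 bp reaches 39.6% at 1000 bp, while the 3 other lines reach 69.5% to 95.9%.

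At shared sites the midpoints were close when both peaks had similar widths. For pairs of 2 peaks under 300 bp the median distance was 45 bp (interval of the median 41.5 to 51, 635 pairs). It was 67 bp (63.5 to 71.5) for 1752 pairs of 300 to under 600 bp, 75.5 bp (70.5 to 81) for 1527 pairs of 600 to under 1000 bp and 113 bp (102.5 to 122.5) for 1017 pairs of 1000 bp or more. Since overlap limits how far midpoints can be apart, each distance was also expressed as a share of the largest distance at which the pair would still touch. That share had a median of 19.8% in the narrowest same-width pairs, 15.6% and 9.69% in the next classes, and 8.46% in the widest. Relative to their widths, wide tagged and MYC peaks at a common site were thus the nearest to being centred on each other. In bp they were not, since 26.8% of the widest pairs had midpoints within 50 bp, against 53.4% of the narrowest.

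In each width class of either list, the pairs with a peak of the same class had the lowest median share of the largest distance. Some pairs of adjacent classes were still below the 19.8% of the narrowest same-width pairs, such as tagged peaks of 600 to under 1000 bp with MYC peaks of 1000 bp or more at 14.4%. The highest share was that of narrow tagged peaks with the widest MYC peaks. A tagged peak under 300 bp in a MYC peak of 1000 bp or more lay a median of 417 bp from the MYC midpoint, 54.5% of the largest possible distance, in 231 pairs. In the reverse case, a tagged peak of 1000 bp or more with a MYC peak under 300 bp, the median was 245 bp and 30.6% of the largest possible, in 142 pairs. The second value rests on pairing each tagged peak with the nearest of its MYC peaks. Over every overlapping pair of these kinds, narrow MYC peaks in the widest tagged peaks lay a median of 412 bp (379.5 to 441, 285 pairs) from the tagged midpoint, and the intervals of both cases overlapped. Over all shared tagged peaks, 27.8% lay wholly inside the MYC peak, 25.4% contained it and 46.8% overlapped it in part. Widths at these sites were similar in both lists. The median was 582 bp for tagged peaks and 597 bp for MYC peaks, and the tagged peak was wider than its MYC peak in 47.8% of pairs.

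**Figure D3:**
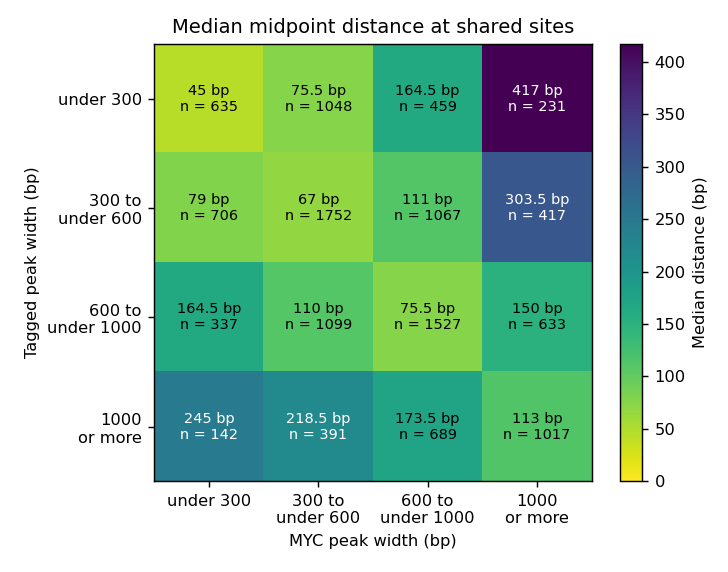
Median distance between the midpoints of a tagged peak and its nearest overlapping MYC peak (bp, colour and text), by width class of the tagged peak (rows, bp) and of the MYC peak (columns, bp), with the number of pairs. Same-width pairs on the diagonal lie at 45 to 113 bp, and the corner of narrow tagged peaks in wide MYC peaks lies at 417 bp.

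The authors' score of each peak, taken to be on a −log10 scale of a p or q, ranked each list. Higher ranks were more often shared. Among the highest 10% of tagged peaks by score, 86.8% (85.3 to 88.3) had a MYC peak, and among the lowest 10% the share was 32.8% (30.7 to 34.9). With a 50% reciprocal overlap these were 68.4% and 12.8%. In the MYC list the highest 10% had a tagged peak in 86.4% of cases and the lowest 10% in 44.5%. Score and width go together in both lists (Spearman's rho 0.67 across tagged and 0.70 across MYC peaks), and within width classes MYC peaks kept little of the gradient. Among MYC peaks of 600 to under 1000 bp, the share with a tagged peak was between 86.2% and 86.5% in each of 5 equal parts of that class by score. MYC peaks under 300 bp ran the other way, with 29.2% (26.6 to 31.9) in their highest 20% and 37.4% (34.7 to 40.3) in their lowest 20%.

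Tagged peaks kept more of the gradient within classes. In the 300 to under 600 bp class the share with MYC was 67.7% (65.0 to 70.4) in the highest 20%, 71.3% in the middle 20% and 51.8% (49.0 to 54.7) in the lowest 20%. At 600 to under 1000 bp it was 92.1% in the highest 20% and 82.1% in the lowest 20%, and at 1000 bp or more 97.9% and 92.3%. For tagged peaks under 300 bp the highest and lowest 20% had 31.7% (29.4 to 34.2) and 28.9% (26.6 to 31.2), with overlapping intervals. That highest 20% was mixed, with 16.1% for peaks at parental sites and 35.1% for the others. The shares by parental site were not computed for the lowest 20%.

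**Figure D4:**
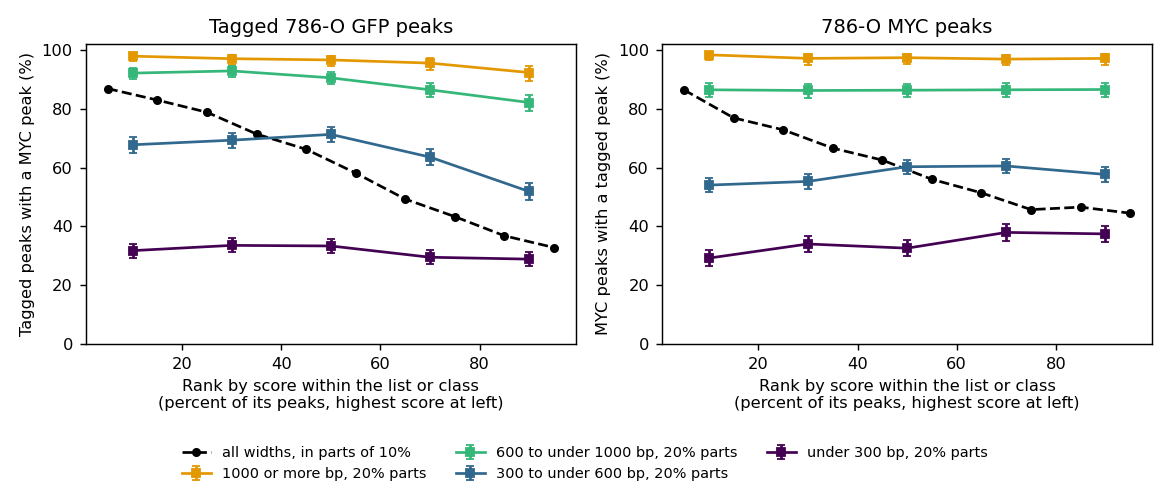
Share of peaks shared with the other list (%, vertical axis) by rank within the list or class (percent of its peaks, highest score at the left), for tagged peaks on the left and MYC peaks on the right. The dashed line is the whole list in parts of 10% and the solid lines are the 4 width classes in parts of 20% with exact 95% intervals. The dashed line of tagged peaks spans 86.8% to 32.8%, while the solid line under 300 bp stays between 33.5% and 28.9%.

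Narrow tagged peaks of very high score were seldom shared, though strong peaks mostly were. They made up 58 of the 264 unshared tagged peaks in the highest 10% by score, and the rest were wider. Of the 61 tagged peaks under 300 bp in the highest 10% of the whole list, 3 had a MYC peak (4.92%, 1.03 to 13.7), far below the 31.4% of their width class and the 86.8% of that 10%. In that set 39 (63.9%, 50.6 to 75.8) lay at a parental 786-O GFP peak, 40 had a tagged A498 peak and 37 (60.7%, 47.3 to 72.9) had a parental A498 peak, where A498 is the second renal carcinoma line of the series. In the whole tagged list 12.2% of peaks lay at a parental 786-O peak and 3.93% at a parental A498 peak. These 61 peaks therefore lay largely at sites that the GFP antibody also gave in cells without a tag. Among the narrow class more widely, its highest 20% had a MYC peak in 16.1% (11.9 to 21.1) of 267 peaks at parental sites and in 35.1% (32.4 to 37.8) of 1245 without a parental peak.

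Strength at shared sites was compared between the factors by rank. Across the 12150 tagged peaks with a MYC peak, the rank in the tagged list and the best rank among the overlapping MYC peaks had a Spearman's rho of 0.21, a description across peaks, which share their libraries and whose score goes with width in both lists. This value depended on the rule, with 0.35 under a 50% reciprocal overlap and 0.088 in the upper 50% of each list. Within the 4 classes of tagged width rho was -0.02, 0.07, 0.13 and 0.16 from the narrowest to the widest, and with both widths fixed it ranged from -0.04 to 0.18. Of the 100 highest tagged peaks 83 had a MYC peak, at a median MYC rank of 5231, and none of these was among the 100 highest MYC peaks. Since only 97 of the 12307 shared MYC peaks were among those 100, few or none would be met even with unrelated ranks. Conversely, 97 of the 100 highest MYC peaks had a tagged peak, with a median rank of 3354 in the tagged list. Of the 1000 highest tagged peaks, 884 had a MYC peak and 132 had one within the 1000 highest. That was a larger share than the 912 of all 12307 shared MYC peaks that were within the 1000 highest. Width was not fixed in this comparison. Each tagged peak was also counted by the best of its MYC peaks, while each MYC peak counted once.

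**Figure D5:**
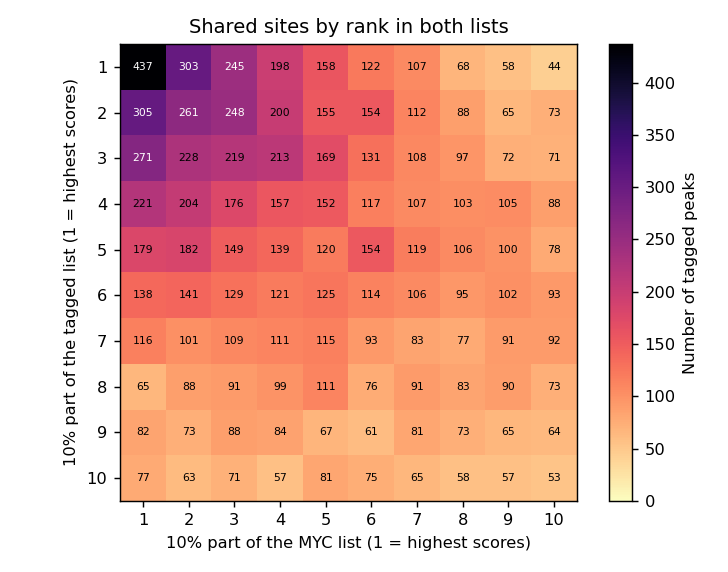
Number of shared tagged 786-O peaks (colour and text) by part of the tagged list (rows) and part of the MYC list (columns), each part being 10% of its list and part 1 holding the highest scores. The fullest cell holds 437 peaks that were in the highest 10% of both lists, and 44 peaks of the highest tagged 10% met a MYC peak of the lowest 10%.

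Tagged peaks at parental sites were more often shared with MYC than the others when all widths were pooled, and not within width classes taken whole. Of the 2438 tagged peaks at parental sites (12.2% of the list), 1795 (73.6%, 71.8 to 75.4) had a MYC peak, against 10355 of the 17596 others (58.8%, 58.1 to 59.6). Parental sites were found in 6.09% of tagged peaks under 300 bp and in 28.0% of those of 1000 bp or more. Peaks at parental sites and peaks without one had MYC shares of 29.6% and 31.5% under 300 bp, 66.1% and 64.6% at 300 to under 600 bp, 90.4% and 88.5% at 600 to under 1000 bp, and 95.6% and 96.0% at 1000 bp or more. In all 4 classes these intervals overlapped. With a 50% reciprocal overlap required of both comparisons, the order turned round, with 26.1% for peaks at parental sites and 40.5% for the others. The direction of the pooled difference thus rests on the overlap rule. That rule also changed which peaks were marked as at parental sites, and the values under it were not split by width.

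By rank, with all widths pooled, the picture was mixed. In the highest 10% of the tagged list the MYC share was 87.8% with a parental peak and 86.4% without. In the next 10% it was 77.8% (73.7 to 81.5) with and 84.4% (82.5 to 86.2) without, and in the lowest 10% it was 57.8% (44.8 to 70.1) with and 32.0% (29.9 to 34.1) without, from 64 and 1939 peaks.

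Read from the MYC side, parental sites did separate the peaks. Of the 1939 MYC peaks at a parental GFP peak (9.6% of the MYC list), 1805 (93.1%, 91.9 to 94.2) also had a tagged peak, against 57.5% (56.8 to 58.2) of the MYC peaks without a parental peak. The difference was present in each class, at 76.4% and 32.9% under 300 bp, 89.8% and 55.1% at 300 to under 600 bp, 95.04% and 84.9% at 600 to under 1000 bp, and 99.1% and 96.6% at 1000 bp or more. The tagged and parental lists come from the same GFP antibody, and the MYC and parental lists share a control library. The part of either in the overlap was not tested.

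Of the tagged peaks, 20.5% had a peak in tagged A498 cells, and of the MYC peaks 17.2%. Tagged peaks with a MYC peak had a tagged A498 peak in 28.1% (27.3 to 28.9) of cases and those without in 8.60% (7.99 to 9.24). With width fixed this narrowed to 3.20% and 4.42% under 300 bp, 14.8% and 12.7% at 300 to under 600 bp, 39.4% and 28.2% at 600 to under 1000 bp, and 59.9% and 49.5% at 1000 bp or more. The intervals were separate at 600 to under 1000 bp (37.8 to 41.1 and 24.1 to 32.6) and overlapped in the other 3 classes. Tagged peaks without MYC lay at a parental A498 GFP peak more often than those with it, in each class. The shares with and without MYC were 0.716% and 5.73% under 300 bp, and 1.57% and 8.10% at 300 to under 600 bp. They were 2.28% and 9.25% at 600 to under 1000 bp, and 4.02% and 23.7% at 1000 bp or more. How much of the tagged A498 shares lay at such parental sites was not tested. On the MYC side the split was by the tagged 786-O list, which like the A498 list is of ZNF395-eGFP. The size of this contrast is therefore not comparable with that of the tagged side. MYC peaks that had a tagged 786-O peak also had a tagged A498 peak in 27.9% (27.1 to 28.7) of cases, and MYC peaks that had none did so in 36 of 7892 (0.456%, 0.320 to 0.631). At 600 to under 1000 bp these shares were 33.4% and 1.18%.

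Unshared peaks were mostly far from the other list rather than narrow misses. Of the 7884 tagged peaks without a MYC peak, 3.13% had a MYC midpoint within 500 bp and 12.2% within 1000 bp, and the median distance was 24657 bp. For the 7892 MYC peaks without a tagged peak the values were 3.10%, 10.9% and 18220 bp. Only 97 of the 7884 unshared tagged peaks were 1000 bp or wider and 5186 were under 300 bp.

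The sites of best joint rank are given by hg19 position, since no annotation of that build was used and genes at these sites were not analysed here. The leading sites of the 2 narrower classes had larger sums of tagged and MYC rank than those of the 2 wider classes. Under 300 bp the leading tagged peak with MYC lay at chr5:14264754-14265024. It held rank 2931 in the tagged list with a score of 37.9, and its midpoint was 2 bp from that of a MYC peak of rank 75. It lay at a parental GFP peak. Next were a tagged peak at chrX:106920011-106920289 (tagged rank 4097, MYC rank 920, 35 bp apart) and a tagged peak at chr1:26324710-26325006 (ranks 3432 and 2090, 83.5 bp apart), neither with a parental peak.

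From 300 to under 600 bp the leading shared peak was at chr20:37063639-37064197, with tagged rank 516 and MYC rank 47, at a parental site. It lay 361 bp from the midpoint of a MYC peak of 1349 bp. A peak at chr3:131221518-131222081 followed (ranks 796 and 24), also at a parental site. The third, at chr9:98188893-98189453, had ranks 354 and 562, midpoints 13 bp apart and no parental peak.

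At 600 to under 1000 bp all 3 leading shared peaks lay at parental sites and had a tagged A498 peak. Of all shared tagged peaks of that class 16.4% lay at a parental site and 39.4% had a tagged A498 peak. The 3 were picked for high rank, and parental sites were commoner among high scores. They held 591 of 2004 tagged peaks in the highest 10% and 64 of 2003 in the lowest 10%. The 3 leading peaks were at chr7:4681147-4682090 (tagged rank 193, MYC rank 12), chr1:184020409-184021352 (ranks 18 and 196) and chr17:79935136-79936064 (ranks 99 and 137). Midpoints there were 85.5, 61.5 and 17.5 bp apart. Among peaks at parental sites of any width, the first and second of these and a peak at chr16:89786896-89788658 (ranks 142 and 70, 25 bp apart) had the best joint ranks. At 1000 bp or more the 3 leading peaks (chr12:131356017-131357273, chr19:1862337-1864638 and chr1:41445196-41446213) had no parental peak, and their midpoints were 92, 171.5 and 43 bp from those of MYC.

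Strong tagged peaks without MYC were present in each width class, and 11 of the 12 named by class had a tagged A498 peak, against 8.60% of all tagged peaks without MYC and 49.5% of those of 1000 bp or more. These sites were picked for their high score. At 600 to under 1000 bp the 3 highest were the tagged peaks of rank 1, 2 and 4, on chromosomes 11, 5 and 2, and their nearest MYC midpoints were 81360, 4865850 and 103911 bp away. From 300 to under 600 bp the highest lay at chr17:19091226-19091571 (rank 32), at a parental site of both lines. It was followed by a peak at chr4:171774440-171774999 (rank 38, nearest MYC midpoint 763527 bp away) and by a peak at chr21:45717360-45717870 (rank 53, 2524 bp away), neither at a parental site. At 1000 bp or more the highest were at chr3:52436197-52438016 (rank 19, 7232 bp from MYC), chr11:13298756-13299980 (rank 36) and chr1:43823637-43825103 (rank 175). The first of these was the 1 without a tagged A498 peak, and it had a GFP peak in parental A498 cells.

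Under 300 bp the highest tagged peak without MYC was at chr20:49204710-49204986, with rank 609 and no parental peak. The next were at chrY:10036463-10036663 (rank 668) and on an unplaced contig of chromosome 9 (rank 692), both with a GFP peak in both parental lines.

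Strong MYC peaks without a tagged peak were also found in each class, and none of the 12 named had a tagged A498 peak, as was the case for all but 0.456% of the MYC peaks without a tagged peak. At 1000 bp or more they were at chr5:131794550-131795718 (MYC rank 74), chr10:25305184-25306318 (MYC rank 113, at a parental GFP peak) and chr1:110162101-110163102 (MYC rank 142). The nearest tagged midpoints were 2716, 43449 and 1083 bp away. At 600 to under 1000 bp they included chr8:130364992-130365705, with MYC rank 168 and a nearest tagged midpoint 182843 bp away. From 300 to under 600 bp the highest was at chr5:14305094-14305688 (MYC rank 176). Its nearest tagged midpoint, 40502 bp away, was that of the leading narrow shared peak named above. The others were at chr1:117099238-117099718 (MYC rank 228) and chr1:45187723-45188143 (MYC rank 384, 509 bp from a tagged midpoint). Under 300 bp the highest unshared MYC peaks, on chromosomes 2, 4 and 14, had MYC ranks of 3179, 3390 and 3712.

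Some shared sites had very unequal ranks. The tagged peak at chr2:8821960-8822419 held rank 273, and the MYC peak in it held rank 19852 of 20199. At chr2:164592410-164593511 the tagged rank was 65 and the MYC rank 19237. The tagged peaks at chr8:33330079-33331117, chr12:75723659-75724269 and chr7:105172420-105172857 had ranks of 510, 410 and 1001 against MYC ranks of 19947, 19625 and 20099. In the opposite direction, tagged peaks of rank 19862 at chr22:18256098-18256412 and of rank 19873 at chr19:1276195-1276458 met MYC peaks of ranks 311 and 582. The other 3 had tagged ranks of 19875, 19533 and 19562. In these 5 cases a tagged peak of 181 to 477 bp overlapped a MYC peak of 983 bp or more, with midpoints 167 to 624.5 bp apart. In the 5 cases that favoured the tagged list, the MYC peak was 203 to 339 bp wide and midpoints were 16.5 to 138 bp apart.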

How the data were processed

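BWA and MACS2 with the hg19 build are named per the submitters' processing notes, without roles, versions or settings. The deposited lists give a position, a name and the authors' score for each peak, read as −log10 of a p or q because every list begins just above 2, where a 0.01 threshold lies. Peak names in the deposited files state merged, sorted alignments processed by mapping quality, and 1 control library for each list. Scores only ranked peaks within a list, with ties broken by width and then position. Overlaps, midpoint distances, exact (Clopper-Pearson) intervals of shares and order-statistic intervals of medians were computed in Python 3.11.15 with scipy 1.17.1, pandas 2.3.3 and numpy 2.4.6, and plotted with matplotlib 3.10.9. On simulated data 0 of 3000 peaks were called wrongly under 4 rules. Each simulated tagged peak had 1 MYC partner, so peaks that meet several, and the choice among them, were not checked.

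Groups came from sample titles. Sites were named by a rule: in each width class the 3 of best rank sum and the 3 highest unshared of each list, the 3 of best rank sum at parental sites, and the 5 largest rank differences each way. Comparisons, classes and the rule were chosen with earlier results of these data known. Genes, promoters and motifs were not analysed here, since no hg19 reference was used. The alternatives are given with the limits.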

Additional observations from a re-analysis of the deposited data

How the results depend on the processing

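Of 47 values under alternatives, 22 stayed within the 95% interval of the reported value and 25 left it, and the correlation kept its sign. The share of tagged peaks with MYC (60.6%) and of MYC peaks with a tagged peak (60.9%) was 40.0% and 39.7% when overlap had to be 50% reciprocal. Midpoints at most 200 bp apart gave 46.0% and 45.6%, the higher-scoring 50% of each list 52.8% and 52.5%, lists without peaks at parental GFP peaks 58.2% and 56.7%, and lists without their widest 1% 59.2% and 59.3%. Merging peaks within 500 bp, a choice made after seeing the data, gave 62.2% for tagged regions. With reciprocal overlap the highest and lowest 10% of tagged peaks had MYC shares of 68.4% and 12.8%. Tagged peaks at parental sites, then marked by the same rule, and the others had 26.1% and 40.5%. In the upper 50% by score these last were 61.9% and 50.6%. The median midpoint distance of same-width pairs under 300 bp was 34.0 bp with reciprocal overlap and 25 bp in the upper 50%. At 300 to under 600 bp it was 59.5 bp and 59.0 bp, and 52.5 bp with quartiles of tagged width as classes. Spearman's rho of ranks was 0.35 with reciprocal overlap, 0.088 in the upper 50% and 0.18 without peaks at parental sites. Reciprocal overlap removes pairs of very unequal width and pairs with little overlap, and the upper 50% shortens both lists. The cause of the moves was not tested. No paired analysis was possible because each group is 1 library. Planned shares at genes and motifs were not run. No list gives counts, so depth could not be weighed.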

Other observations

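Tagged and MYC peaks were dense in the same parts of the genome. Across 2509 bins of 1 Mb on chromosomes 1 to 22 and X that held a peak of either list, the numbers of tagged and MYC peaks had a Spearman's rho of 0.88, a description over bins that share gene and base content. The bin with most shared tagged peaks was chromosome 19 from 1 to 2 Mb, where 53 of 67 tagged peaks had a MYC peak and the MYC list held 73. It was followed by chromosome 9 from 139 to 140 Mb, with 44 of 52 shared.

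The bins with most tagged peaks lacking MYC were of different kinds, and were looked at after their values were seen. Chromosome 4 from 49 to 50 Mb had 48 such peaks, 1 MYC peak and 48 parental 786-O GFP peaks, and chromosome 10 from 42 to 43 Mb had 47, 4 and 51. By contrast, chromosome 6 from 28 to 29 Mb had 29 tagged peaks without MYC, 12 MYC peaks and 2 parental peaks. Chromosome 7 from 27 to 28 Mb had 24 tagged peaks without MYC beside 19 with it, and no parental peak. Chromosome 6 from 26 to 27 Mb had 45 tagged peaks without MYC, 15 MYC peaks and 21 parental peaks.

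By chromosome, the share of tagged peaks with MYC ranged from 54.1% (532 peaks, chromosome 14) to 68.8% (506 peaks, chromosome 22) over chromosomes 1 to 22 and X. On chromosome Y it was 13.1% of 61 peaks, and on unplaced contigs and the mitochondrial genome 21.4% of 42 peaks.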
